A study of Mus musculus with 35 samples.

Results

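The 33 genes described here encode enzymes and regulators of sterol and fatty acid synthesis: 18 enzymes that build cholesterol from acetyl-CoA, 6 proteins that control the sterol-sensing transcription factors SREBP1 and SREBP2, and 9 enzymes that make, elongate or desaturate fatty acids. They were taken from a list of SREBP-driven symbols, kept where the symbol stood in the count tables and exceeded 1 CPM, a count scaled to a library of 1000000, in at least 5 of 35 samples. All 33 of the 33 listed genes met this, among 13421 genes that did so out of 54735 symbols. The values are bulk RNA-seq of liver macs of male C57Bl/6J mice that were put on a standard diet (SD) or on a Western diet rich in fat, sugar and cholesterol (WD) from 5 weeks of age. Resident Kupffer cells (ResKCs, CLEC4F+TIM4+) were sorted after 12 weeks on the SD (n = 7) or the WD (n = 5) and after 24 weeks on the SD (n = 6) or the WD (n = 6). Monocyte-derived Kupffer cells (moKCs, CLEC4F+TIM4-, n = 5) and CLEC4F- macs (n = 6) came from the WD at 24 weeks, so that neither of these 2 populations had an SD group. For the 5 WD ResKC samples at 12 weeks the diet field of the labels conflicts with their titles and descriptions, and the latter were followed. The paper counts its n for these populations in mice. The labels name no animal for a sample, so that samples of different populations could not be matched by mouse.

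SREBPs are made as membrane proteins of the endoplasmic reticulum and are held there by INSIG proteins through the escort protein SCAP. When membrane cholesterol is low, SCAP carries them to the Golgi, where proteases release the part that enters the nucleus. SREBP2 acts mainly on cholesterol synthesis genes and SREBP1 mainly on fatty acid genes, and fatty acid genes also respond to the oxysterol receptors LXR. Macrophages take up cholesterol from lipoproteins and dead cells and can also make it. In the liver, hepatocytes express both gene sets strongly.

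The sequences upstream of 4 of the genes are shown because these genes differed between groups in the comparisons below and lie in both branches. Each runs over the 250 bases before the RefSeq start site (GRCm38.p6), 5′ to 3′ on the gene's strand, with capitals marking the searched motifs on either strand: TCACNCCAC, a sterol response element sequence, CCAAT, the NF-Y box, and CACGTG, an E-box. The *Hmgcs1* window is chr13:119690101-119690350 on the plus strand, that of *Mvd* chr8:122443423-122443672 on the minus strand, that of *Fasn* chr11:120824548-120824797 on the minus strand and that of *Acly* chr11:100528001-100528250 on the minus strand. In *Fasn*, 1 CCAAT lies across its own complement, so that both matches share bases.
Hmgcs1: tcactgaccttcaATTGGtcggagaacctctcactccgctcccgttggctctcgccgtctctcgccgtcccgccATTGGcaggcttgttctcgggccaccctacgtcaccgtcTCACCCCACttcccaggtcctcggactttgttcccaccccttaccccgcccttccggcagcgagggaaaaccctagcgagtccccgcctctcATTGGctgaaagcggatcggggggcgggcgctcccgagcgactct
Mvd: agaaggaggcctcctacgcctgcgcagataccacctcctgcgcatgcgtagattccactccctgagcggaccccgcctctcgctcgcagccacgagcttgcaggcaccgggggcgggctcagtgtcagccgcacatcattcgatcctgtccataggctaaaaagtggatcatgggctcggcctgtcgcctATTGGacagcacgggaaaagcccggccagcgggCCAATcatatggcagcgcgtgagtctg
Fasn: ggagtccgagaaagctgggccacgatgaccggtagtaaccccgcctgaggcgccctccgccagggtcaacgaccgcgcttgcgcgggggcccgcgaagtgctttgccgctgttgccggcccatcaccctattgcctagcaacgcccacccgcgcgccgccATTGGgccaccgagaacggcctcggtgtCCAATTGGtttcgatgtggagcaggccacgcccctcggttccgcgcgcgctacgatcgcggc
Acly: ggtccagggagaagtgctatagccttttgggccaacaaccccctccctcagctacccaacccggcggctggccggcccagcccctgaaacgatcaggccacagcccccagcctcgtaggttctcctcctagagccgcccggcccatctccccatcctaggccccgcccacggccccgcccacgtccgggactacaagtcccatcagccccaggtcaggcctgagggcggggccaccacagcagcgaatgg
Promoters of 26 of the 33 genes were matched by symbol in the RefSeq table, whose windows reach from 250 bases before to 50 after the start. The sterol response sequence was found in 1 of the 26, *Hmgcs1*, which makes the HMG-CoA of the mevalonate pathway. It stood in 1.436% of the 27025 genes of the table. CCAAT was present in 21 of the 26 genes and in 14 of the 15 sterol genes matched, against 41.06% of all genes. CACGTG was present in 6 of the 26, against 8.093% of all genes. The *Acly* stretch printed above holds none of the 3. Its full window holds 1 CCAAT that does not lie within this stretch, so *Acly* is among the 21 genes. No match says only that these letters are absent from the bases searched.

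Sterol synthesis genes were expressed at low levels in these macs and fatty acid genes spanned a wide range. As mean CPM per kilobase of exon (RPKM) in WD ResKCs at 24 weeks, *Scd1*, the stearoyl-CoA desaturase, had 228, *Acly*, which splits citrate into acetyl-CoA, 121, *Elovl5*, an elongase, 45.8 and *Scd2*, a second desaturase, 35.4. The level of *Ebp*, a sterol isomerase, was 24.0 RPKM, the highest of the sterol branch. *Sqle*, the squalene epoxidase, had 0.600 RPKM and *Fdps*, the farnesyl diphosphate synthase, 0.152. Both transcription factors were well above these, with 19.9 RPKM for *Srebf1* and 9.09 for *Srebf2*. Of the 75-base stretches of *Acat2*, *Acaca*, *Idi1*, *Fdps* and *Fdft1*, between 21.78% and 33.93% also occur in other genes, and the authors' handling of such reads is not given in the sources used here, so the levels of these genes are uncertain.

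The sequencing depth was similar throughout, with 11568590 to 15163845 counts per sample. At that depth 3 counts are 0.198 to 0.259 CPM, which covers counting error only. Clec4f and the other Kupffer cell genes were high in ResKCs, as the sort requires, and lower in CLEC4F- macs, where CLEC4F- replicate 4 had the highest Kupffer cell score (-1.97 against a group median of -3.35). Hepatocyte genes were present in every group, with the summed level of 14 markers between 497 and 3718 CPM and none of the 14 at 0 in any sample. Their level moved with several of the fatty acid genes, and the values are given with those results. In the headers of the count tables the alignment names follow 2 schemes, of 22 and 13 samples, and all SD ResKCs at 24 weeks and all WD ResKCs at 12 weeks belong to the first. In bulk samples, a change in the number of cells of a type and a change in RNA per cell cannot be told apart.

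For each branch a score was taken as the mean over its genes of log2 CPM centred per gene. The fatty acid score of WD ResKCs at 24 weeks averaged 0.36 ± 0.21 (SD, n = 6) and ran from 0.06 to 0.62. In SD ResKCs at 24 weeks it averaged -0.35 ± 0.23 (n = 6), from -0.67 to -0.10, so that the groups did not overlap. At 12 weeks the WD ResKCs (-0.12 ± 0.23, n = 5) lay within the wide range of the SD ResKCs (-0.26 ± 0.48, n = 7, from -0.76 to 0.58). The scores of moKCs (0.28 ± 0.16, n = 5) and CLEC4F- macs (0.15 ± 0.22, n = 6) overlapped that of WD ResKCs at 24 weeks. The sterol score behaved otherwise: it was highest in CLEC4F- macs, at 0.40 ± 0.22 with a range of 0.12 to 0.67, and that range stood above all 6 WD ResKC samples at 24 weeks (-0.55 to 0.02). The 5 moKC samples lay between -0.06 and 0.30. Among the 4 ResKC groups the mean sterol score ran only from -0.18 to -0.06. The control genes showed no group apart, with means from -0.13 in WD ResKCs at 12 weeks to 0.08 in SD ResKCs at 24 weeks. Scores carry no test here, because the genes were chosen with results of these data known.

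**Figure D1:**
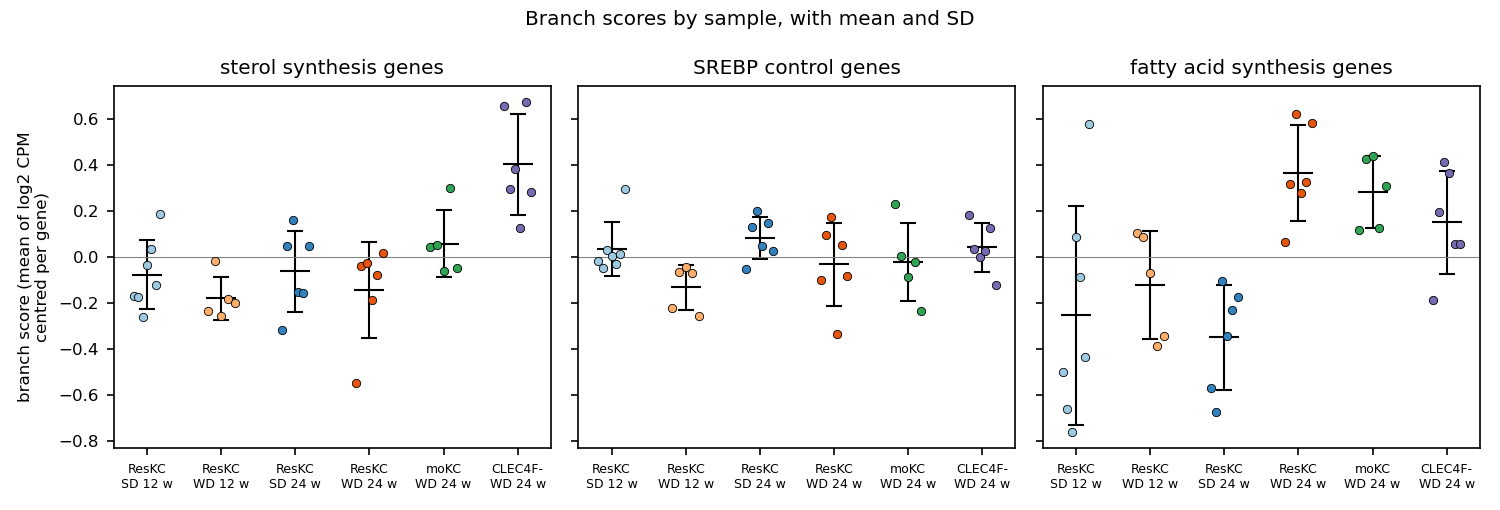
Branch score of every sample (mean of log2 CPM centred per gene, vertical axis) in the 6 groups (horizontal axis), with bars for the mean and SD. The sterol score of CLEC4F- macs (0.12 to 0.67) lies above that of WD ResKCs at 24 weeks (-0.55 to 0.02), and the fatty acid score of WD ResKCs at 24 weeks (0.06 to 0.62) above that of SD ResKCs (-0.67 to -0.10).

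The first question was which of these genes the WD moved in ResKCs at 24 weeks. Of the 9 fatty acid genes, 3 (*Scd1*, *Scd2* and *Fasn*) were higher on the WD and none lower, and 0 of the 18 sterol and 0 of the 6 control genes passed the test. Calls are at an adjusted p under 0.05 in edgeR's quasi-likelihood test, adjusted by Benjamini-Hochberg over all 13421 genes. Over all genes tested, 4.84% were called higher and 3.87% lower. The median log2 fold change was 0.58 for the fatty acid genes, all 9 of which had a positive estimate, -0.11 for the sterol genes and 0.00 for all genes tested. With an unadjusted p under 0.05 stood 8 of 9 fatty acid, 2 of 18 sterol and 3 of 6 control genes, against 3331 of all 13421 genes. DESeq2 called 5 of the 33 genes, these 3 and *Acly* as higher and the control gene *Srebf2* as lower, and limma-voom called 2, *Scd1* and *Fasn*. Over all genes DESeq2 called 1504 and limma-voom 953.

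*Scd1* (chr19:44394455-44407879) encodes the enzyme that turns saturated into monounsaturated fatty acids. Its level in SD ResKCs at 24 weeks was 281 CPM at the lowest, 474 at the median and 614 at the highest, against 749.7, 975 and 1860 CPM in WD ResKCs. All 6 WD samples lay above all 6 SD samples. The log2 fold change was 1.30 ± 0.38 (SE), a 2.47-fold difference (adjusted p = 0.0265 by edgeR's quasi-likelihood test). It missed the threshold without SD ResKC replicate 1 or 2 or WD ResKC replicate 3, with adjusted p from 0.0615 to 0.0784. *Scd2* (chr19:44293674-44306864) encodes a close paralog, and 1.776% of its 75-base stretches occur in *Scd1* or related genes. It had 109.9, 122 and 164 CPM on the SD and 103, 209.5 and 267 CPM on the WD. Here the groups overlapped, since WD ResKC replicate 5 was the lowest of all 12 samples. The log2 fold change of *Scd2* was 0.58 ± 0.17 (adjusted p = 0.0325), and it missed the threshold when any 1 of SD ResKC replicates 1, 2, 3 and 6 or WD ResKC replicates 1, 2, 4 and 6 was left out (adjusted p from 0.0605 to 0.0943).

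*Fasn* (chr11:120805846-120824547) encodes the fatty acid synthase, which builds palmitate. Its lowest, median and highest levels were 35.6, 51.3 and 65.9 CPM on the SD and 66.3, 95.7 and 123 CPM on the WD at 24 weeks. The 2 groups met without overlapping. The log2 fold change was 0.95 ± 0.22, or 1.94-fold, with an adjusted p of 0.00639 by edgeR's quasi-likelihood test, and it passed the threshold in all 12 fits that left out 1 sample. The other members of the branch had positive estimates that did not pass. *Fads2*, the delta-6 desaturase, had the highest estimate of the 33 genes at 1.45 ± 0.54 (adjusted p = 0.0855), and *Elovl6*, which elongates palmitate, had 0.93 ± 0.385 (0.122). *Acly* had 0.38 ± 0.13 (0.0690), *Elovl5* 0.39 ± 0.15 (0.0939) and *Acaca*, the acetyl-CoA carboxylase of the committed step, 0.45 ± 0.20 (0.158). *Fads1*, the delta-5 desaturase, was at 0.08 ± 0.11, with a 95% interval from -0.15 to 0.32.

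**Figure D2:**
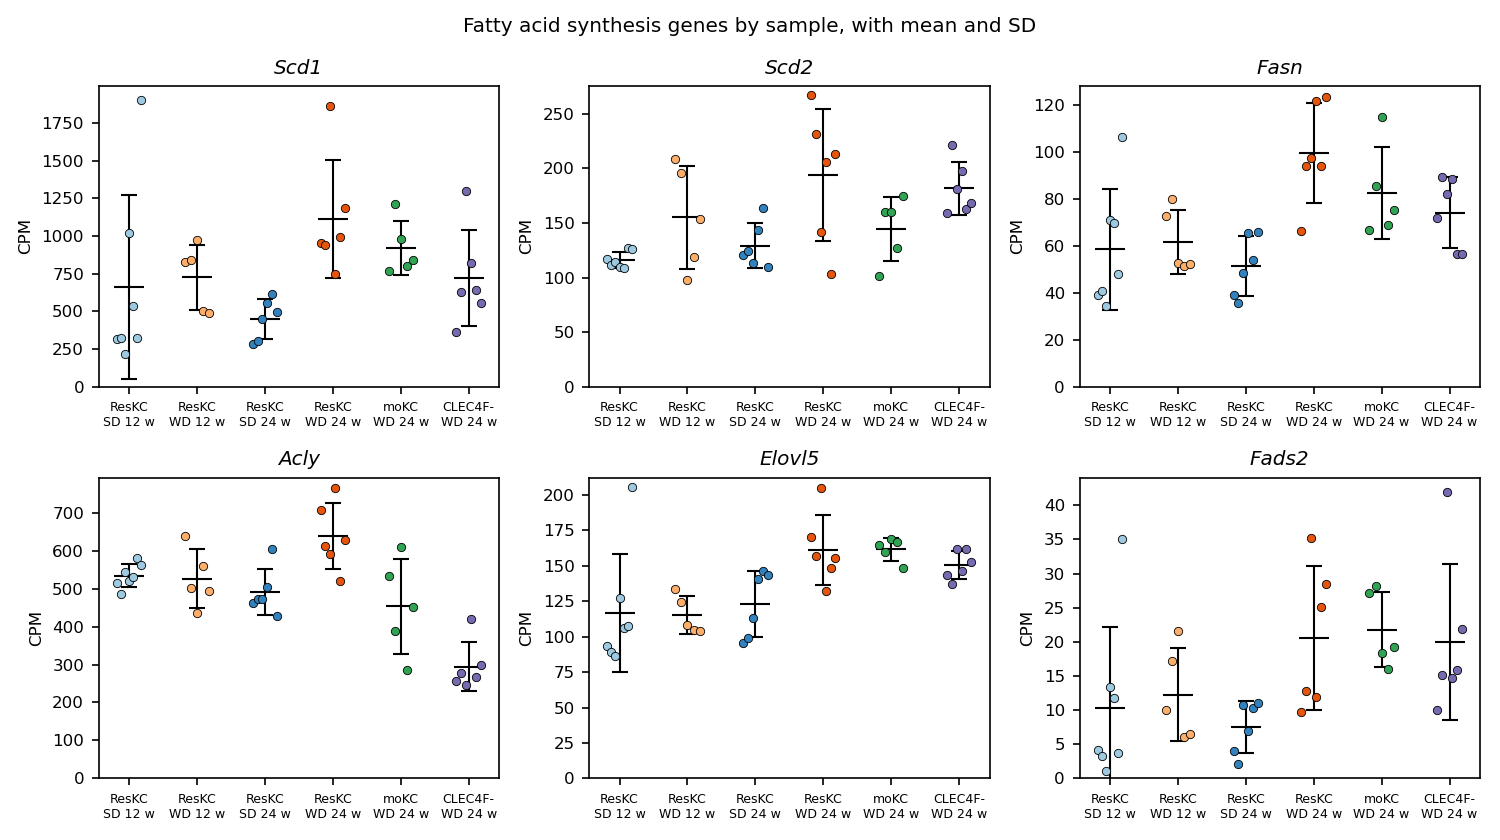
CPM of 6 fatty acid synthesis genes in every sample of the 6 groups, with bars for the mean and SD and linear axes from 0. In Scd1 and Fasn the WD ResKC samples at 24 weeks lie above the SD samples of that time, and Acly is lowest in CLEC4F- macs (median 272 CPM).

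In the sterol branch the estimates at 24 weeks lay on both sides of 0, with 8 positive and 10 negative. *Sqle* had 2.94, 5.59 and 7.90 CPM on the SD and 2.60, 3.38 and 3.98 CPM on the WD. The groups overlapped, and the log2 fold change of -0.71 ± 0.26 did not pass (adjusted p = 0.0808 by edgeR's quasi-likelihood test), though it did without SD ResKC replicate 1 (0.0440). *Hmgcs1*, at 21.0, 25.3 and 33.8 CPM on the SD and 26.2, 31.3 and 38.0 CPM on the WD, had an estimate of the other sign, 0.28 ± 0.13 (adjusted p = 0.193). The demethylation enzymes *Cyp51* and *Msmo1* of the late pathway had -0.31 ± 0.19 and -0.15 ± 0.14. Of the control genes, *Srebf2* had 74.2, 86.2 and 99.1 CPM on the SD and 52.8, 66.4 and 79.9 CPM on the WD. Its ranges overlapped and its log2 fold change of -0.39 ± 0.13 did not pass (adjusted p = 0.0641), though it did without WD ResKC replicate 2 (0.0425). *Srebf2* was also called lower by DESeq2 (0.0478) and by edgeR's quasi-likelihood test on the compared groups alone (0.0340). *Srebf1* had 93.2, 106 and 131 CPM on the SD and 91.5, 112 and 129.6 CPM on the WD, with an estimate of 0.05 ± 0.09 and a 95% interval from -0.13 to 0.22. *Insig1*, itself a target of SREBP2, had 37.7, 45.5 and 60.5 CPM on the SD and 31.8, 42.8 and 50.1 CPM on the WD, with -0.21 ± 0.15 (adjusted p = 0.427).

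Hepatocyte markers and stress genes moved with some of these results. At 24 weeks the 14 hepatocyte markers together had 536 to 1592 CPM in SD ResKCs and 1135 to 3501 CPM in WD ResKCs. Fitted within groups over all 35 samples, the slope on the hepatocyte score was called positive for 5 of the 9 fatty acid genes (*Fads2*, *Scd1*, *Elovl5*, *Fasn* and *Fads1*), for 1 of 18 sterol genes (*Sc5d*) and for 1 of 6 control genes (*Insig2*), against 6.18% of all genes tested. Per unit of that score *Fads2* rose by 1.18 ± 0.07 (SE) and *Scd1* by 0.71 ± 0.07 on the log2 scale, *Fasn* by 0.30 ± 0.07, and the slopes of *Scd2* (-0.11 ± 0.07), *Acly* (-0.04 ± 0.05) and *Acaca* (-0.12 ± 0.08) were not called. With the score as a covariate, the WD estimates at 24 weeks became 0.70 for *Scd1* (adjusted p = 0.0181), 0.65 for *Scd2* (0.0185) and 0.73 for *Fasn* (0.0126), all still called by edgeR's quasi-likelihood test, while *Fads2* fell from 1.45 to 0.49 (0.0952). *Sqle* was then called lower at -0.84 (0.0475).

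A list of 10 immediate-early and heat-shock genes had summed levels of 1861 to 10172 CPM in SD ResKCs and 853 to 3838 CPM in WD ResKCs at 24 weeks. With their score as a covariate 0 of the 33 genes were called, where calls over all genes fell from 1169 to 476. *Fasn* was then at 0.68 (adjusted p = 0.118 by edgeR's quasi-likelihood test), *Scd1* at 0.61 (0.438) and *Scd2* at 0.40 (0.284). These 3 estimates kept their sign, and the part of the immediate-early and heat-shock genes in the result was not tested beyond this. Within the first naming scheme, which leaves 3 WD and 6 SD samples, the estimates were 1.46 for *Scd1* (0.0202), 0.73 for *Fasn* (0.0365) and 0.72 for *Scd2* (0.0676). Over all samples with the naming scheme as a covariate, *Scd1* lost its call (1.19, adjusted p = 0.0577 by edgeR's quasi-likelihood test), and *Scd2* (0.60, 0.0460) and *Fasn* (0.77, 0.0299) kept theirs.

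**Figure D3:**
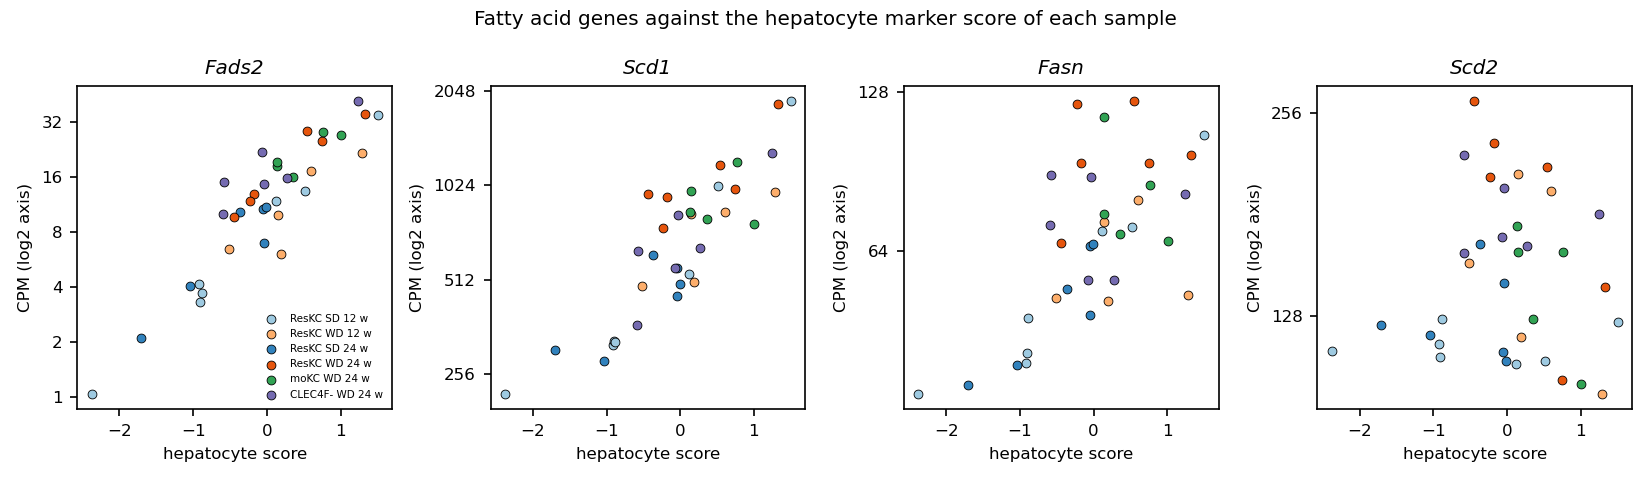
CPM of 4 fatty acid genes (vertical axis, log2 scale) against the hepatocyte marker score of each of the 35 samples (horizontal axis, mean of centred log2 CPM), coloured by group. Fads2 and Scd1 climb with the score (slopes of 1.18 and 0.71 log2 units), Fasn less so (0.30), and Scd2 does not (-0.11).

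At 12 weeks the diet moved none of the 33 genes past the threshold. Of all genes tested, 0.0373% were called in either direction at this time. DESeq2 gave 5 and limma-voom 3 of the 33 genes with an unadjusted p under 0.05, and neither tool called any of them. In edgeR's test 4 of the 33 had such a p, against 1172 of all 13421 genes. These 4 were *Lss*, the lanosterol synthase (-0.52 ± 0.24), *Insig1* (-0.38 ± 0.16), *Srebf2* (-0.35 ± 0.14) and *Scd2* (0.42 ± 0.18), with adjusted p from 0.474 to 0.550 by edgeR's quasi-likelihood test. *Srebf2* had 52.9, 55.9, 57.7, 69.2 and 81.0 CPM in the 5 WD samples, against 63.9, 79.0 and 98.1 CPM as lowest, median and highest on the SD. *Scd1* had 489, 503, 827, 838 and 973 CPM on the WD. In the SD group it ran from 220.3 over a median of 326 to 1903 CPM, the highest value of all 35 samples. That sample, SD ResKC replicate 7, also had the highest summed hepatocyte level, 3718 CPM, and was the highest of its group for *Fasn* (106 CPM), *Elovl5* (206 CPM) and *Fads2* (35.1 CPM).

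**Figure D4:**
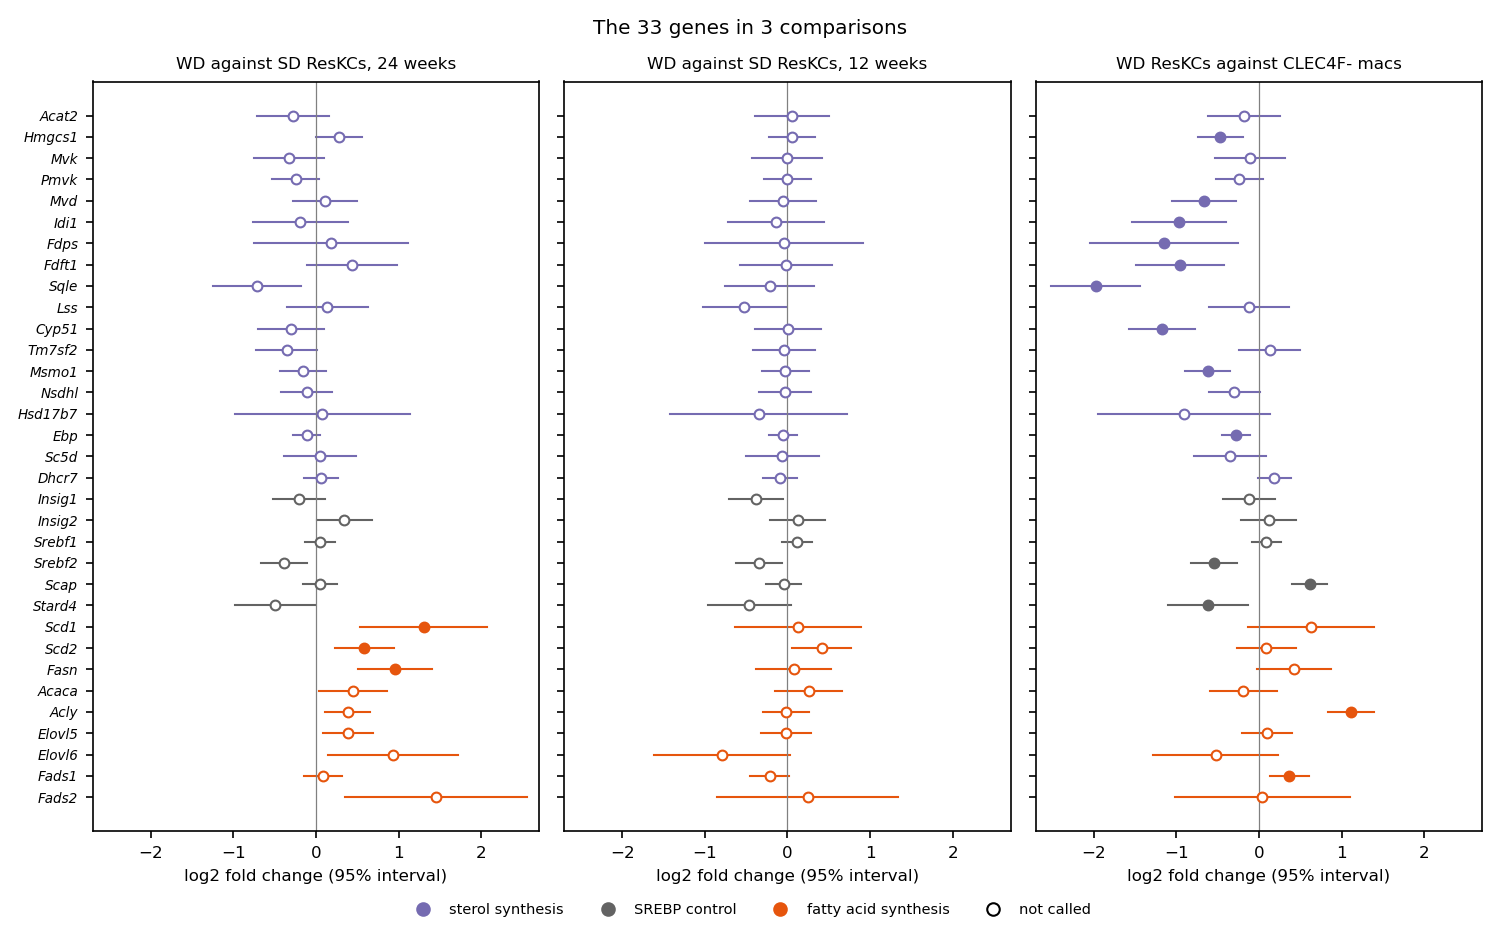
Log2 fold change with its 95% interval (horizontal axis) for each of the 33 genes (vertical axis) in 3 comparisons, coloured by branch, with filled points for genes called at an adjusted p under 0.05. At 24 weeks the called genes are Scd1, Scd2 and Fasn, at 12 weeks there are none, and against CLEC4F- macs 11 genes are called lower and 3 higher in WD ResKCs.

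Whether the diet effect differed between the times was tested as a difference of the 2 log2 fold changes. None of the 33 genes was called by edgeR, DESeq2 or limma-voom, against 0.283% of all genes in edgeR's test. An unadjusted p under 0.05 stood for 4, 5 and 3 of them, against 1886 of all 13421 genes in edgeR's test. The 4 in edgeR's test were fatty acid genes: *Elovl6* (1.73 ± 0.56, adjusted p = 0.140), *Fasn* (0.87 ± 0.31, 0.191), *Scd1* (1.17 ± 0.53, 0.314) and *Acly* (0.40 ± 0.19, 0.335). A larger effect of the WD at 24 than at 12 weeks was therefore not shown for any of them. Between 12 and 24 weeks on the SD, 0 of the 33 genes were called and 0 had an unadjusted p under 0.05 with any of the 3 tools. Of all genes, 0% were called by edgeR and by limma-voom, and DESeq2 called 16 genes. In edgeR's test 1208 of all 13421 genes had an unadjusted p under 0.05. On the WD, edgeR called 0 of the 33, against 3.26% of all genes. With an unadjusted p under 0.05 stood 2527 of all 13421 genes and 5 of the 33. Those were *Hmgcs1* and the fatty acid genes *Fasn* (0.69 ± 0.23, adjusted p = 0.0932), *Elovl5* (0.49 ± 0.16, 0.0766), *Elovl6* (1.21 ± 0.41, 0.0971) and *Fads1*. DESeq2 called *Fasn* and *Elovl5*, limma-voom none, and with the hepatocyte score as a covariate edgeR called *Scd1*, *Fasn*, *Elovl5* and *Fads2*. Over all genes DESeq2 called 632, limma-voom 369 and that edgeR fit 516.

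The next comparisons were among the 3 populations on the WD at 24 weeks. WD ResKCs were lower than CLEC4F- macs in 9 of 18 sterol genes and higher in none. The 9 include *Fdps*, which passed the expression filter only with the CLEC4F- samples counted. In the control branch 2 of 6 were lower and 1 higher, and in the fatty acid branch 2 of 9 were higher and 0 lower. Of all genes tested 17.0% were called higher and 16.1% lower in this comparison. The median log2 fold change was -0.41 for the sterol genes, 0.10 for the fatty acid genes and -0.02 for all genes. Library size in place of TMM factors shifted the median of all genes by -0.121 and kept the direction of the 14 members called. For members not called, the direction under library size was not examined.

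*Sqle* (chr15:59315077-59331192), which oxidises squalene in a rate-limiting step, differed most. It had 2.60, 3.38 and 3.98 CPM as lowest, median and highest in WD ResKCs and 6.93, 11.1 and 24.4 CPM in CLEC4F- macs. The 2 groups did not overlap. The log2 fold change of *Sqle* was -1.98 ± 0.26 (adjusted p = 3.45e-07 by edgeR's quasi-likelihood test). *Cyp51* (chr5:4081145-4104746) had 11.3, 17.7 and 21.8 CPM in WD ResKCs and 28.4, 34.3 and 59.6 CPM in CLEC4F- macs, again apart, with a log2 fold change of -1.17 ± 0.20 (1.33e-05). *Msmo1* (chr8:64718139-64733792) had 24.7, 30.4 and 37.6 against 37.9, 45.0 and 62.9 CPM, with -0.62 ± 0.14 (0.000465). CLEC4F- replicate 1 held the highest *Sqle* and *Cyp51* values. Without it the differences were -1.72 and -1.01, both still called.

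Upstream in the pathway, *Hmgcs1* (chr13:119690379-119708260) had 26.2, 31.3 and 38.0 CPM in WD ResKCs and 33.8, 41.8 and 58.0 CPM in CLEC4F- macs. These ranges overlapped, with a log2 fold change of -0.47 ± 0.13 (adjusted p = 0.00653 by edgeR's quasi-likelihood test). *Mvd*, the mevalonate diphosphate decarboxylase, was lower, at -0.66 ± 0.19 (0.00633), *Idi1*, the isopentenyl diphosphate isomerase, at -0.97 ± 0.28 (0.00654) and *Fdft1*, the squalene synthase, at -0.96 ± 0.26 (0.00441). *Fdft1* overlaps *Ctsb*, and counts of the pair cannot be told apart without strand. *Idi1* had 1.09, 1.88 and 3.06 CPM in WD ResKCs and 2.34, 3.43 and 5.82 CPM in CLEC4F- macs, and these ranges overlapped. *Fdps* passed the filter only through the CLEC4F- macs, the group where it was high, so its direction carries no support. It rested on few reads, 5 to 12 counts per sample in WD ResKCs and 9 to 33 in CLEC4F- macs. Its levels were 0.438, 0.638 and 0.919 CPM in WD ResKCs and 0.637, 1.49 and 2.29 CPM in CLEC4F- macs. Its difference of -1.15 ± 0.44 (0.0424) missed the threshold when any 1 of WD ResKC replicates 1, 3, 4, 5 and 6 or CLEC4F- replicates 1, 2, 3 and 5 was left out (adjusted p from 0.0515 to 0.111). *Ebp* was lower, at -0.28 ± 0.08 (0.00799).

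Of the control genes, *Srebf2* (chr15:82147181-82205379) had 52.8, 66.4 and 79.9 CPM in WD ResKCs and 82.1, 87.4 and 132 CPM in CLEC4F- macs, without overlap. Its log2 fold change was -0.54 ± 0.13 (adjusted p = 0.00183 by edgeR's quasi-likelihood test). *Scap* went the other way, with 49.8, 56.0 and 73.5 CPM in WD ResKCs above 30.2, 38.3 and 43.4 CPM in CLEC4F- macs, and 0.62 ± 0.10 (1.46e-05). *Stard4*, a cytosolic sterol carrier, was lower, at -0.61 ± 0.24 (0.0430), a call lost without WD ResKC replicate 1, 4 or 6 or CLEC4F- replicate 1, 4, 5 or 6 (adjusted p from 0.0534 to 0.143). *Srebf1* (0.09 ± 0.09, 95% interval -0.09 to 0.27) and *Insig1* (-0.12 ± 0.15, -0.44 to 0.20) were not called.

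**Figure D5:**
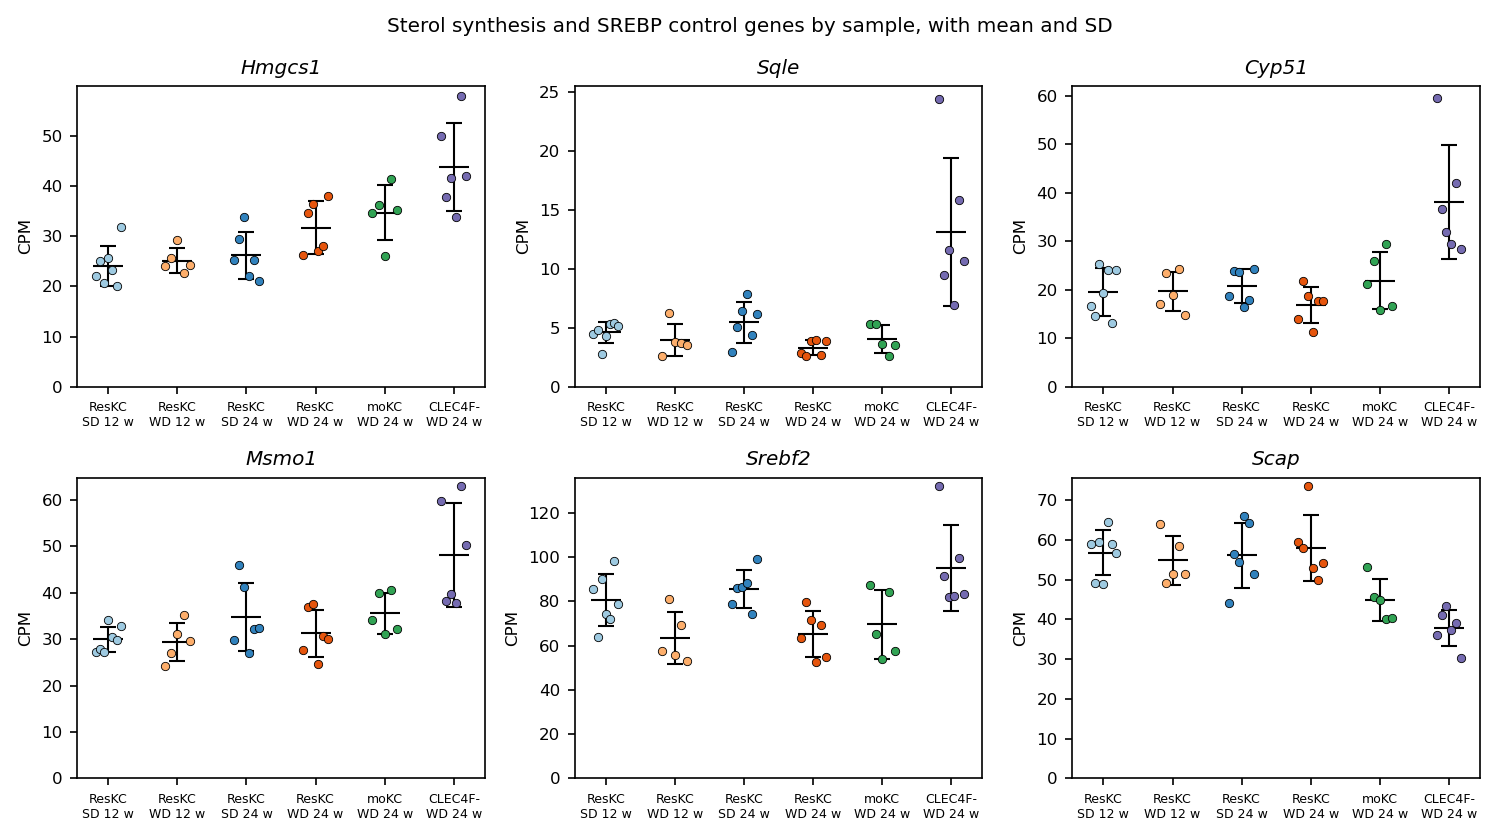
CPM of 4 sterol synthesis genes and of Srebf2 and Scap in every sample of the 6 groups, with bars for the mean and SD and linear axes from 0. Sqle, Cyp51 and Srebf2 are highest in CLEC4F- macs (medians 11.1, 34.3 and 87.4 CPM) and Scap is lowest there (38.3 CPM).

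In the fatty acid branch *Acly* (chr11:100476353-100528000) had the clearest difference. WD ResKCs had 521, 622 and 767 CPM and CLEC4F- macs 247, 272 and 421 CPM, with no overlap. The log2 fold change of *Acly* was 1.12 ± 0.14, or 2.17-fold (adjusted p = 6.68e-08 by edgeR's quasi-likelihood test). The highest CLEC4F- value was that of replicate 4, and without it the log2 fold change was 1.25. *Fads1* was also higher in WD ResKCs, by 0.37 ± 0.11 (0.0116), a call lost without WD ResKC replicate 3 or CLEC4F- replicate 1 (0.0501 and 0.0590). The 3 genes that the WD raised at 24 weeks were not called between these populations: *Scd1* had 0.63 ± 0.37 (0.206), *Fasn* 0.42 ± 0.22 (0.139) and *Scd2* 0.09 ± 0.17 (0.742).

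Genes listed as markers of other cells differed between these populations too. The 4 monocyte markers together had 75.1 to 124 CPM in WD ResKCs and 344 to 1333 CPM in CLEC4F- macs. *Ccr2* had 4.64 to 6.62 and 217 to 1129 CPM, and *Plac8* overlapped, with 70.1 to 118 and 43.1 to 153 CPM. *Ly6c2* and *Chil3* were each at 0 in 2 of the 6 WD ResKC samples. The paper names *Ccr2* and *Chil3* among genes specific to CLEC4F- macs, so these 2 do not tell monocytes from the sorted macs. The 4 of 6 lymphocyte markers that passed the filter had 4.44 to 7.50 and 10.6 to 92.7 CPM. The part of monocytes or lymphocytes in the sterol result was not tested. Within the first naming scheme (3 against 3 samples) *Sqle* was at -2.28, *Cyp51* at -1.25 and *Acly* at 1.28, and within the second (3 against 3) at -1.65, -1.10 and 0.96, each called by edgeR's quasi-likelihood test.

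The moKCs lay between the other populations for *Sqle*, *Cyp51* and *Acly* by their means. By log2 fold change they were closer to the WD ResKCs for *Sqle* and *Cyp51*. For *Acly* the differences were similar, with moKCs 0.49 below WD ResKCs and 0.63 above CLEC4F- macs. Against CLEC4F- macs, 5 of the 33 genes were lower in moKCs and 1 higher, where 7.09% and 9.34% of all genes were called lower and higher. *Sqle* had 2.62, 3.51, 3.67, 5.29 and 5.33 CPM in the 5 moKC samples, all under the lowest CLEC4F- sample at 6.93 CPM, with a log2 fold change of -1.68 ± 0.28 (adjusted p = 3.62e-05 by edgeR's quasi-likelihood test). *Cyp51* had 15.9, 16.7, 21.3, 26.0 and 29.4 CPM in moKCs, the highest of which reached into the CLEC4F- range, with -0.80 ± 0.20 (0.00536). *Acly* had 287, 388, 451, 533 and 610.2 CPM in moKCs and overlapped the CLEC4F- macs, with 0.63 ± 0.14 (0.00158). *Msmo1* had 31.1, 32.2, 34.2, 39.9 and 40.7 CPM in moKCs and *Srebf2* 53.7, 57.4, 65.1, 84.3 and 87.5 CPM, and both ranges overlapped those of CLEC4F- macs. *Msmo1* (-0.43 ± 0.14, 0.0314), *Srebf2* (-0.45 ± 0.14, 0.0248) and *Ebp* (-0.26 ± 0.09, 0.0342) were lower. *Msmo1* missed the threshold without moKC replicate 1, 3 or 5 or CLEC4F- replicate 1, 5 or 6 (0.0517 to 0.104). *Srebf2* did so without moKC replicate 2, 3 or 5 or CLEC4F- replicate 1 (0.0567 to 0.0989), and *Ebp* without moKC replicate 1, 2 or 5 or CLEC4F- replicate 5 or 6 (0.0558 to 0.117).

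Between WD ResKCs and moKCs only *Acly* of the 33 genes was called, higher in WD ResKCs by 0.49 ± 0.14 (adjusted p = 0.0490 by edgeR's quasi-likelihood test), where 2.00% of all genes were called higher and 0.991% lower. The ranges of *Acly* overlapped, since the 2 highest moKC samples (533 and 610.2 CPM) exceeded the lowest WD ResKC sample (521 CPM). The call was lost without WD ResKC replicate 1, 2, 3, 4 or 6 or moKC replicate 2, 4 or 5 (adjusted p from 0.0554 to 0.177). *Scap* had 0.37 ± 0.11 (0.0503). *Sqle* had -0.30 ± 0.27, with a 95% interval from -0.86 to 0.26, and *Cyp51* -0.38 ± 0.20, from -0.79 to 0.04. The 3 population comparisons share samples, so that their values are not independent of each other.

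A list of 28 neighbouring genes, covering sterol uptake, export, storage and sensing and the supply of precursors, was counted beside them. At 24 weeks 2 of the 28 were higher on the WD and 0 lower, against 4.84% and 3.87% of all genes. One of the 2 was *Mlxipl*, a carbohydrate-sensing factor of lipogenesis, at 1.78 ± 0.58 (adjusted p = 0.0496 by edgeR's quasi-likelihood test). *Mlxipl* also rose with the hepatocyte score, by 0.96 ± 0.16. At 12 weeks 0 of the 28 were called, with 4 at an unadjusted p under 0.05, against 1172 of all 13421 genes. In WD ResKCs against CLEC4F- macs 6 of 28 were higher and 3 lower, shares near the 17.0% and 16.1% of all genes. *Nr1h3*, which encodes LXRα, was higher by 0.82 ± 0.09 (7.08e-09), *Acss2*, which makes acetyl-CoA from acetate, by 0.70 ± 0.13 (5.48e-05) and *Soat1*, which esterifies cholesterol, by 0.32 ± 0.08 (0.00157). *Ch25h*, which makes 25-hydroxycholesterol, was lower, at -2.53 ± 0.64 (0.00229), with 0 to 0.876 CPM in WD ResKCs and 1.90 to 4.07 CPM in CLEC4F- macs. Outside the CLEC4F- macs *Ch25h* had at most 0.995 CPM, so it passed the filter only through the group where it was high. Its lower direction, here and in moKCs below, was thereby fixed beforehand and carries no support. Against moKCs 2 of 28 were higher in WD ResKCs and 0 lower, where 2.00% and 0.991% of all genes were called, namely *Soat1* (0.31 ± 0.08, 0.0265) and *Npc1*, the lysosomal cholesterol transporter (0.46 ± 0.13, 0.0399). In moKCs against CLEC4F- macs 1 of 28 was higher, *Nr1h3* (0.68 ± 0.09), and 2 were lower, where 9.34% and 7.09% of all genes were called, *Ch25h* (-2.01 ± 0.66) and *Npc1* (-0.40 ± 0.13).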

How the data were processed

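Bulk RNA-seq of 35 samples was grouped by sample titles and descriptions. The authors made TruSeq libraries, read single 75-base ends and, per their notes, used FastQC 0.11.9, HISAT2 2.2.0 on mm10, SAMtools 1.10 and featureCounts 2.0.0. What they deposited are raw counts for each gene symbol, neither filtered nor normalized. Annotation, strand setting and treatment of reads with several matches are not given in the sources used here.

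The filter of the paper's methods, over 1 CPM in 5 or more samples, left 13421 of 54735 symbols. A single edgeR (4.0.16, R 4.3.3) quasi-likelihood model of 6 group means with TMM factors gave all comparisons, adjusted by Benjamini-Hochberg. The study's own tool, limma, and its added limit of 1 on the absolute log2 fold change served as alternatives. CPM were scaled by TMM, and scores used log2 CPM with a prior count of 2. RPKM used the union of GENCODE M21 exons (mm10). The member genes and all lists were chosen with earlier results of these data known.

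Given in full are members called in a diet comparison or in the difference of diet effects, the 5 called members with the largest log2 fold change for each pair of populations, and *Srebf1*, *Srebf2*, *Insig1*, *Scd1*, *Scd2*, *Fasn*, *Sqle* and *Hmgcs1*. Other members named singly were chosen after their values were seen. Alternatives were DESeq2 1.42.0, voom of limma 3.58.1, omission of the filter, library size without TMM, RLE factors, a fit of only the groups compared, a replicate block, covariates for hepatocyte genes, for immediate-early and heat-shock genes and for naming scheme, and each sample left out. Fits within 1 naming scheme were added after seeing the data.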

Additional observations from a re-analysis of the deposited data

Results flagged for a closer look

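Values far from the rest of their group were sought with Dixon's ratio in 96 groups of values. Chance alone sets apart about 1 in 20 such groups, and 4 were found. *Sqle* in SD ResKC replicate 3 at 12 weeks stood low, at 1.56 (log2 CPM), whereas the other 6 samples had 2.15 to 2.47. *Acly* in CLEC4F- replicate 4 stood high, at 8.72 against 7.95 to 8.22, and this sample also had the highest Kupffer cell score of its group, -1.97. The sterol score of WD ResKC replicate 1 at 24 weeks stood low, at -0.55 against -0.19 to 0.02. The control gene score of SD ResKC replicate 7 at 12 weeks stood high, at 0.30 against -0.05 to 0.03, in the sample with the highest summed hepatocyte level (3718 CPM).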

How the results depend on the processing

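The single-gene results counted here are those of genes called in the main fit of a comparison. For the 24-week diet comparison *Srebf1*, *Srebf2*, *Insig1*, *Sqle*, *Hmgcs1*, *Fads2*, *Elovl5* and *Acly* were added. Calls gained by other genes are not in the count. Over 373 such results under other settings, 312 kept their direction and their side of the threshold, 50 lost the call, 11 gained one and 0 reversed. Leaving out 1 sample at a time gave 320 of 377 unchanged in both respects, 52 lost, 4 gained and 1 reversed, *Srebf1* in the 24-week diet comparison, whose log2 fold change ran from -0.00094 (without WD ResKC replicate 1) to 0.11. The cause of these changes was not tested.

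In WD against SD ResKCs at 24 weeks 3 of the 33 genes were called. DESeq2, library size alone, the groups compared alone and the replicate block each gave 5, the log2 fold limit 1, and the immediate-early and heat-shock covariate 0, where calls over all genes fell from 1169 to 476. Leaving out 1 sample gave 1 to 4, with 1 without SD ResKC replicate 2. Over all genes DESeq2 called 1504, library size alone 1479, the groups alone 1116, the block 1282 and the fold limit 450. The fatty acid score difference of 0.71 became 0.476 with the hepatocyte and 0.478 with the immediate-early and heat-shock covariate. In WD ResKCs between 12 and 24 weeks, 0 became 2 with DESeq2, 1 with the groups alone, 1 with the block and 4 with the hepatocyte covariate. Over all genes 438 became 632, 231, 311 and 516 in that order.

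In WD ResKCs against CLEC4F- macs 14 became 4 with the fold limit and 8 within each naming scheme. Over all genes 4433 became 1399 with the fold limit, 3620 within the first scheme and 1670 within the second. In WD ResKCs against moKCs, 1 became 2 with DESeq2 and with the naming scheme covariate, and 0 without filter, with library size alone, the groups alone, the block, the immediate-early and heat-shock covariate, the fold limit and within each scheme. Leaving out 1 sample gave 0 to 2. Over all genes 401 became 576 with DESeq2, 449 with the naming scheme covariate, 283 without filter and 391 with library size alone. The groups alone gave 310, the block 372, the immediate-early and heat-shock covariate 385, the fold limit 186, and the schemes 95 and 62. In moKCs against CLEC4F- macs 6 became 3 without filter and with the groups alone, 1 with the fold limit, 2 within the first and 1 within the second scheme. Leaving out 1 sample gave 3 to 7, with 3 without moKC replicate 5. Over all genes 2204 became 1795 without filter, 1611 with the groups alone, 678 with the fold limit, and 1734 and 325 within the schemes.

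Replicate numbers were not used to pair the samples in the main fit. Correlations of deviations between same-numbered samples ran from -0.0227 to 0.13 for the 24-week diet comparison, and every other comparison also had one under 0.1. For WD ResKCs against CLEC4F- macs they ran from 0.0242 to 0.263, and 5 of 6 samples correlated best with their own number. In the other comparisons at most 2 samples did so. Whether same-numbered ResKC and CLEC4F- samples shared a mouse was not tested, and the main fit treats them as independent. With the replicate block *Sqle* was at -1.96 and *Cyp51* at -1.17 between these populations, both still called. Library size alone moved the share of higher among called genes from 55.6% to 77.0% for the 24-week diet comparison, from 51.4% to 33.4% for WD ResKCs and from 56.9% to 38.9% for moKCs against CLEC4F- macs, from 47.0% to 65.3% for WD ResKCs over time and from 23.7% to 64.1% for the difference of diet effects. DESeq2 called more of all genes than edgeR at 12 weeks (44 against 5), for the difference of diet effects (184 against 38) and over time on the SD (16 against 0). Depth limited genes with few reads, such as *Fdps*.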
